A study of Mus musculus with 30 samples.

Results

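The heterozygous constitutive exon 5 line of Puf60 was compared with its parental wild type in mouse embryonic stem cells (ESC). Members were chosen by their labels alone: the 2 ESC libraries of the heterozygous line and the 2 ESC libraries of the parental wild type, 4 of the 30 libraries of the series. The cells are CGR8, a mouse ESC line. In the heterozygous line CRISPR-Cas9 editing had made inclusion of Puf60 exon 5 constitutive on 1 allele, and the wild type was the unedited parent. All 4 libraries are poly(A)-selected RNA-seq of undifferentiated cells. The series also holds a homozygous constitutive line, a line with a homozygous deletion of exon 5 and an Rbm38 knockout, and each line again as embryoid bodies at day 8 (EB8) and as glutamatergic neurons at day 7 after the progenitor stage (DIV7). The edited lines are clonal, and the series text speaks of 2 independent clones without tying libraries A and B to a clone or a culture. The edit and the history of a clone therefore cannot be told apart, and p-values measure only the spread between libraries.

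Puf60 is a poly-U-binding protein related to the large subunit of U2AF. It helps the spliceosome recognise 3' splice sites, and as FIR it is also known as a repressor of MYC transcription. Exon 5 is a cassette exon: it is kept in some Puf60 mRNAs and skipped in others, and an edit that forces its inclusion removes the choice. Inclusion is given as percent spliced in (PSI), the share of transcripts that keep the exon as read from the reads across its junctions. Gene levels are given in CPM, scaled spliced reads relative to the library total, and their changes are differences of log2(CPM + 1), which understate changes of low genes.

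Inclusion changed for 3 exons, Puf60 exon 5 and 1 exon each of Fbxl20 and Mid1. The sequences of the Fbxl20 and Mid1 exons are shown because they changed outside the edited gene. Each is given 5' to 3' on the transcript strand from GENCODE M21 (GRCm38), with the exon in capitals and 15 bases of each neighbouring exon in lower case. All 3 are coding over their whole length.
Fbxl20: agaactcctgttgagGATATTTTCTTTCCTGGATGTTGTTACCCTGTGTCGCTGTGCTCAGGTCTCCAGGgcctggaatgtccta
Mid1: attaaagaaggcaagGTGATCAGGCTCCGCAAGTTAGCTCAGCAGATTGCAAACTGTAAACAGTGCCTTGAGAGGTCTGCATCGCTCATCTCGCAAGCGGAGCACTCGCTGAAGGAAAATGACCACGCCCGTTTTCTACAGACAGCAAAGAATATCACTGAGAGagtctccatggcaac
Puf60 exon 5 lies on the minus strand of chromosome 15, is exon 5 of 12 in its transcript and is 51 nt long, a multiple of 3, so that its skipping keeps the reading frame. The Fbxl20 exon lies at chr11:98115393-98115447 on the minus strand, exon 3 of 15, and is 55 nt long. The Mid1 exon lies at chrX:169981885-169982033 on the plus strand, exon 5 of 10, and is 149 nt long. The lengths of the Fbxl20 and Mid1 exons are not multiples of 3, so that skipping either one shifts the frame. The upstream guide RNA given in the labels for this edit was ctttgcagcaggaccggcga, with no capitals because no part of it was singled out. It matched 0 of the 11 annotated Puf60 transcripts on either strand, and its place in the introns was not determined.

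The label of the line held in its RNA. Puf60 exon 5 had a PSI of 22.4 and 20.71 in the wild-type libraries and of 49.33 and 49.16 in the heterozygous libraries. The heterozygous values lay close together and far above the wild type. The difference was 27.69 PSI points (adjusted p = 0.000178, limma on read-weighted log ratios of 10 ESC libraries with Benjamini-Hochberg adjustment). In the wild-type libraries 1380 and 1141 reads skipped the exon, against 674 and 606 in the heterozygous libraries. The homozygous line stood at 98.97 and 98.33, above the heterozygous line by 49.4 points (adjusted p = 7.19e-11 in the same fit).

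The heterozygous value was not midway between the wild type and the homozygous line. The midpoint of their means was 60.1, and the heterozygous mean of 49.2 ± 0.12 (SD, n = 2) lay 10.9 points under it. The same order held at the later stages, in other libraries of the same lines. In EB8 the heterozygous libraries stood at 54.36 and 50.22 against a midpoint of 60.9. In DIV7 they stood at 64.87 and 60.08 against a midpoint of 68.7. All 6 heterozygous libraries of the 3 stages were under the midpoint of their stage, a difference that was not tested. The level of Puf60 itself did not pass the test: 343.3 and 327.2 CPM in the wild type and 340.7 and 339.6 CPM in the heterozygous line, a log2 change of 0.02 ± 0.07 (SE; adjusted p = 1, limma). The heterozygous values lay between the wild-type ones.

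**Figure D1:**
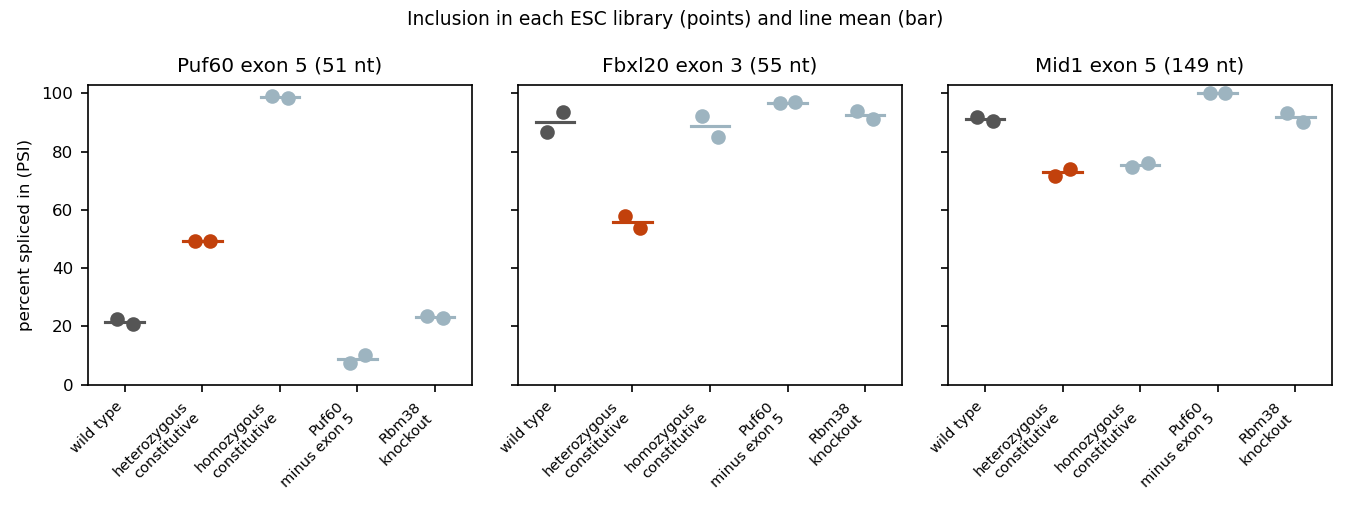
PSI of 3 exons in each of the 10 ESC libraries (points, 2 per line) with the mean of each line (bar). The heterozygous line was intermediate for Puf60 exon 5, stood apart from the other 4 lines for the Fbxl20 exon, and was close to the homozygous constitutive line for the Mid1 exon.

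Beyond the edited exon itself, 2 splicing events changed in the heterozygous ESC, both cassette exons that were included less. Of 22018 events tested, 3 (0.0136%) passed an adjusted p of 0.05 with a difference of at least 10 PSI points, 1 higher (0.00454%, Puf60 exon 5) and 2 lower (0.00908%). At an unadjusted p under 0.05 there were 1156 events (5.25%). All 3 were also called in the authors' deposited table. It called 2617 of 301972 events (0.867%) in this comparison, by a rule not given in the sources used here. Its calls do not single out the 3, since it also called the exons of Tfdp2, Smarcad1, Cdc45 and Eml4 described below.

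Fbxl20 encodes an F-box protein, the substrate-recognition part of a ubiquitin ligase. Its 55-nt exon had a PSI of 86.67 and 93.46 in the wild type and of 57.73 and 53.59 in the heterozygous line. The groups were well apart, with 139 to 210 reads in each of the 4 libraries. The difference was -34.4 points (adjusted p = 0.00411). The homozygous constitutive line did not share the low inclusion: it stood at 92.31 and 84.93, and the heterozygous line was lower by a difference of -32.96 points (adjusted p = 0.0038). The exon deletion line stood at 96.61 and 96.91 and the Rbm38 knockout at 93.88 and 91.11, so that among the 5 ESC lines the low value was seen in the heterozygous one. It was seen again at the later stages, in fits of each stage on its own. In EB8 the PSI was 89.71 and 95.66 in the wild type and 43.37 and 58.27 in the heterozygous line (difference -41.87, adjusted p = 0.00105). In DIV7 it was 95.88 and 95.38 against 41.63 and 51.81 (difference -48.91, adjusted p = 1.47e-05). In ESC the Fbxl20 call was lost without heterozygous replicate B (adjusted p = 0.108) and without wild-type replicate B (adjusted p = 0.0764), at differences of -32.33 and -31.01 points.

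Mid1, which the event coordinates place on the X chromosome, encodes a microtubule-associated TRIM-type ubiquitin ligase. Its 149-nt exon had a PSI of 91.77 and 90.59 in the wild type and of 71.64 and 74.09 in the heterozygous line, on 1541 to 2093 reads per library. The groups did not overlap, and the difference was -18.32 points (adjusted p = 0.000178). The homozygous line stood at 74.65 and 75.93, and its difference from the heterozygous line was -2.43 points (heterozygous minus homozygous, adjusted p = 0.831). The Rbm38 knockout stood at 93.19 and 90.19, while the exon deletion line had only 15 and 23 reads there. At the later stages the exon was again lower in the heterozygous line, by a difference of -13.68 points in EB8 (adjusted p = 0.00105) and of -13.13 points in DIV7 (adjusted p = 0.000828). A second Mid1 cassette exon of 144 nt, farther along the gene, had a PSI of 92.77 and 93.79 against 91.09 and 92.91 (difference -1.28, adjusted p = 0.903, limma). The exon deletion line had few reads at that exon too, 18 and 30. In the same line Uba1y, a gene of the Y chromosome, stood at 0 CPM in both libraries. Whether the low Mid1 reads go with this was not tested, nor was the chromosome from which the reads at these exons came.

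No microexon, alternative splice site or retained intron passed the test, with 12 of 184, 229 of 5762 (3' sites), 197 of 4494 (5' sites) and 262 of 5334 events at an unadjusted p under 0.05 in limma. Cassette exons had the highest such share among the 5 classes, 456 of 6244 (7.30%). A large difference in Tfdp2 rested on few reads. The 67-nt exon of Tfdp2, the dimerisation partner of E2F factors, had a PSI of 54.52 and 53.92 in the wild type and 96.62 and 98.04 in the heterozygous line (difference 43.11, adjusted p = 0.428, 68 to 89 reads). The other ESC lines also stood above the wild type for it. The homozygous line was at 57.83 and 82.79, the exon deletion line at 84.36 and 67.76, and the Rbm38 knockout at 91.84 and 97.61. For the septin gene Sept8, use of the alternative 3' splice site farthest upstream was 47.06 and 43.11 in the wild type and 65.73 and 63.91 in the heterozygous line (adjusted p = 0.895), and the homozygous line stood at 84.17 and 85.95. In Smarcad1, a chromatin remodeller, a 110-nt exon stood at 97.83 and 98.43 against 94.1 and 93.62 (adjusted p = 0.428), and the homozygous line was far lower at 72.63 and 79.16. A 138-nt exon of Cdc45, a subunit of the replicative helicase, stood at 97.25 and 97.47 against 92.93 and 91.26 (adjusted p = 0.895), with the homozygous line at 89.6 and 90.87. For Eml4, which encodes a microtubule-binding protein, a 129-nt exon stood at 96.36 and 95.14 against 90.56 and 85.95 (adjusted p = 0.895), and the homozygous line was at 73.22 and 64.72. Sept8 differed by 19.74 points, on 136 to 169 reads in each wild-type and heterozygous library. The differences of Smarcad1, Cdc45 and Eml4 were small, at -4.27, -5.27 and -7.49 points, under the size needed for a call. They rested on 533 to 890, 350 to 430 and 295 to 370 reads per library, more than that of Tfdp2. In each of Sept8, Smarcad1, Cdc45 and Eml4 the heterozygous mean lay between the wild type and the homozygous line. These 4 were picked for mention after their values were seen, and since both comparisons share the wild-type libraries the order is a description.

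Man2a1, a Golgi mannosidase of N-glycan processing, showed complete use of 1 site in the edited constitutive lines. The longer alternative 5' site, of 125 extra nt, had a PSI of 63.75 and 57.7 in the wild type and of 100 in both heterozygous and both homozygous libraries. A nearby 3' site of 4 extra nt went from 62.37 and 63.16 to 100 in the same libraries. With 34 to 61 reads in each wild-type and heterozygous library neither passed the test (adjusted p = 0.895 for each). The exon deletion line and the knockout stood between 32.18 and 66.99 at these sites.

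Retained introns as a class read higher in the heterozygous line. Among 4322 introns with at least 20 reads in each of the 4 libraries, 189 were higher and 28 lower by at least 10 points without overlap, 5.02% of them, against 5.26% over all classes. The median PSI over the 5334 introns tested was 8.33 and 7.98 in the wild type and 9.1 and 12.03 in the heterozygous line. Libraries B of the other edited lines were also high, at 11.85, 12.5 and 11.76, against 8.58, 8.82 and 9.8 in their libraries A. The shift thus moved with the replicate letter as well as with the line, and its source was not tested.

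At the level of genes, those called at a 2-fold change in the heterozygous ESC were imprinted genes, expressed from only the maternal or the paternal copy. Of 13931 genes tested, 5 (0.0359%) changed at least 2-fold at an adjusted p under 0.05 in limma: Meg3, Rian and Mirg were higher (3 genes, 0.0215%), and Grb10 and Cdkn1c were lower (2 genes, 0.0144%). All 5 are imprinted genes known to be expressed mostly from the maternal copy in embryonic tissue. At an adjusted p under 0.05 of any size there were 10 genes (0.0718%), and at an unadjusted p under 0.05 there were 492 (3.53%). Over all genes, the 2 heterozygous libraries lay outside the range of the wild-type libraries for 31.7%, which is the background for the counts of genes without overlap below. In bulk RNA, fewer cells that express a gene and less RNA per cell cannot be told apart.

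Meg3, Rian and Mirg are long noncoding RNAs that follow each other on chromosome 12 on the plus strand, from 109541001 to 109749460 (GRCm38), and host many small RNAs. Whether their spliced reads come from separate transcripts or from 1 long one cannot be told from these counts. Meg3 had 7.37 and 9.16 CPM in the wild type and 38.0 and 81.7 CPM in the heterozygous line. Heterozygous library B was the highest, and both stood far above the wild type, with a log2 change of 2.62 ± 0.36 (SE; adjusted p = 0.00297). Rian went from 6.80 and 8.42 to 31.5 and 50.02 CPM (log2 change 2.25 ± 0.25, adjusted p = 0.000138). Mirg went from 4.13 and 5.46 to 18.0 and 26.3 CPM (log2 change 1.98 ± 0.23, adjusted p = 0.000156). The other ESC lines lay on the other side of the wild type: Meg3 had 1.72 and 3.01 CPM in the homozygous line, 1.94 and 3.47 in the exon deletion line and 0.829 and 1.21 in the Rbm38 knockout. The heterozygous line exceeded the homozygous line by 4.10 for Meg3 (adjusted p = 7.67e-07), 4.09 for Rian (adjusted p = 1.21e-09) and 3.4 for Mirg (adjusted p = 3.09e-09), all log2. The Meg3 call was lost without heterozygous replicate B (log2 change 2.08, adjusted p = 0.069) and without wild-type replicate A (2.48, adjusted p = 0.0828), while Rian and Mirg stayed called in all 15 alternatives. The authors' deposited table gave Meg3 a log2 fold change of 2.79 with an FDR of 0.696. There Rian (2.20) and Mirg (2.29) had an FDR of 0.616 each.

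The protein-coding gene of the same region, Dlk1, is expressed from the paternal copy and encodes a Notch-like membrane protein. In ESC it had 10.3 and 9.55 CPM in the wild type and 15.4 and 13.8 CPM in the heterozygous line, a log2 change of 0.52 ± 0.29 that did not pass the test (adjusted p = 1). The other 2 measured genes of the cluster list lie upstream. Begain stood at 1.45 and 1.48 against 2.14 and 2.24 CPM and Wdr25 at 4.33 and 5.25 against 3.79 and 4.04 CPM, with adjusted p = 1 for each. In all, 6 of the 8 listed genes of the cluster were measured; 5 lay higher and 1 lower without overlap, with a median log2 change of 1.25 against 0 over all genes tested. In the authors' deposited table an adjacent noncoding gene on the minus strand, Gm34081, had a log2 fold change of 2.59 with an FDR of 0.000198. It lies at 109493529 to 109516740 on chromosome 12, between Dlk1 and Meg3, and was not among the genes whose spliced reads were summed here.

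Grb10 encodes an adaptor that dampens insulin and growth factor receptor signalling and is known to be expressed from the paternal copy in neurons. It had 20.6 and 18.0 CPM in the wild type and 4.93 and 7.67 CPM in the heterozygous line. The groups were well apart, and the log2 change was -1.50 ± 0.22 (adjusted p = 0.00297). The homozygous line stood at 14.01 and 18.8 CPM, near the wild type, whereas the exon deletion line (6.87 and 9.24) and the knockout (4.74 and 6.69) overlapped the heterozygous values. In the authors' deposited table Grb10 had the lowest FDR of this comparison (1.45e-09, log2 fold change -1.50). Of the 5 genes called here only Grb10 had an FDR under 0.05 there. Cdkn1c, an inhibitor of cyclin-dependent kinases, had 49.6 and 38.1 CPM in the wild type and 17.8 and 13.7 CPM in the heterozygous line (log2 change -1.42 ± 0.20, adjusted p = 0.00297). The homozygous line had 38.8 and 31.4 CPM and was higher than the heterozygous line (difference -1.11 log2, adjusted p = 0.000924). Without wild-type replicate A neither gene passed (adjusted p = 0.0828 for Grb10 and 0.113 for Cdkn1c), nor did Grb10 without heterozygous replicate A (0.174) or Cdkn1c without heterozygous replicate B (0.103). Over all 15 alternatives the log2 change ran from -1.77 to -1.11 for Grb10 and from -1.61 to -1.23 for Cdkn1c.

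**Figure D2:**
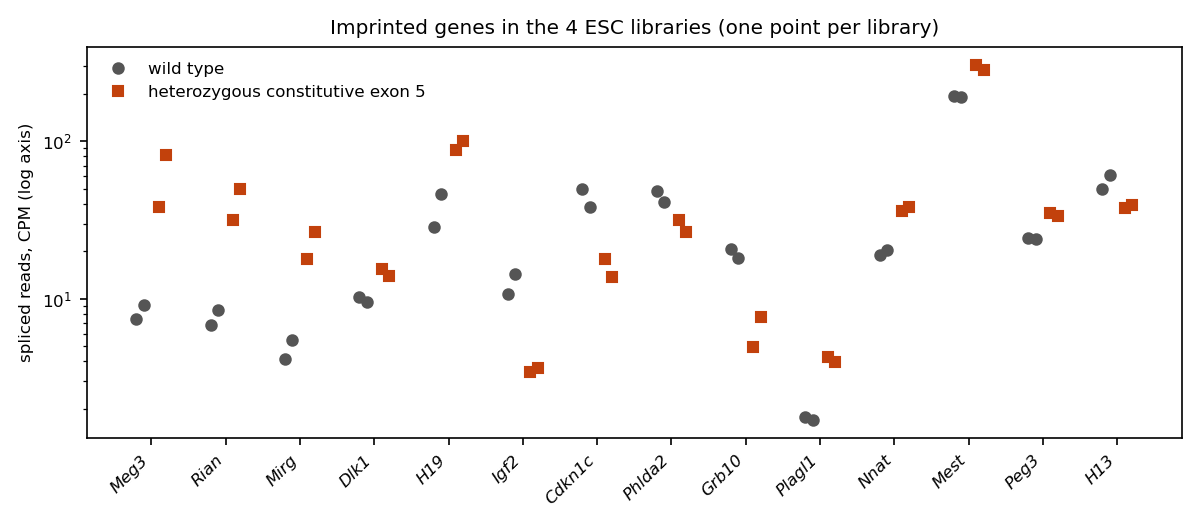
Spliced reads in CPM (log axis) of 14 imprinted genes in the 2 wild-type (grey circles) and 2 heterozygous (orange squares) ESC libraries. Meg3, Rian, Mirg, Grb10 and Cdkn1c passed the test with at least a 2-fold change; the 14 genes were picked among those whose groups did not overlap.

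Other imprinted genes stood outside the wild-type range without passing the test. H19, a noncoding RNA, and Igf2, the growth factor gene next to it on chromosome 7, lay in opposite directions. H19 had 28.3 and 46.4 CPM in the wild type and 88.3 and 100.1 CPM in the heterozygous line (log2 change 1.35 ± 0.39, adjusted p = 0.662). Igf2 had 10.7 and 14.4 against 3.43 and 3.63 CPM (-1.57 ± 0.45, adjusted p = 0.654). Phlda2, a placental growth regulator close to Cdkn1c on chromosome 7, had 48.1 and 41.4 against 31.7 and 26.4 CPM (adjusted p = 1). Among genes expressed from the paternal copy, the zinc finger gene Plagl1 had 1.76 and 1.69 against 4.29 and 3.96 CPM (adjusted p = 0.305). The proteolipid gene Nnat had 18.9 and 20.4 against 36.0 and 38.2 CPM (adjusted p = 0.0931). Mest, a hydrolase-like gene, had 193 and 192 against 306 and 282 CPM (adjusted p = 0.499). The peptidase gene H13, known to be expressed mainly from the maternal copy in the mouse, lay the other way, at 49.4 and 60.8 against 37.8 and 39.3 CPM (adjusted p = 0.291).

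Over the 25 measured imprinted genes outside the Dlk1 and Meg3 region, 17 (68%) did not overlap, 9 higher and 8 lower, with a median log2 change of 0.04. The background over all genes was 31.7%. Of 25359 genes in the authors' deposited table, 7 (0.0276%) had an FDR under 0.05. Among them were the imprinted genes Grb10, Peg13 (log2 fold change 1.55, FDR 7.69e-05) and Plagl1 (1.22, FDR 0.0145). The others were Gm34081, described above, Pde2a (-1.82, FDR 0.0306), Gm45799 (2.40, FDR 0.0306) and Cacng7 (-0.57, FDR 0.0407). Of the 16 listed genes of DNA methylation and imprint maintenance, all measured, 0 passed the test, with 0 at an unadjusted p under 0.05 and 0 called with voom weights in limma. Their log2 changes ran from -0.21 (Dnmt3l) to 0.40 (Dppa3). Dnmt1, the maintenance methyltransferase, stood at 818.6 and 798.5 against 825.2 and 779.4 CPM, and Zfp57, a zinc finger protein that protects imprints, at 68.0 and 63.9 against 69.7 and 66.3 CPM.

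The imprinted differences were followed into EB8 and DIV7, where the same lines were sequenced again and other wild-type libraries served as controls. Meg3 stayed higher in the heterozygous line: 53.1 and 89.0 against 296 and 470 CPM in EB8 (log2 change 2.42, adjusted p = 0.00365) and 362 and 358 against 1318 and 910 CPM in DIV7 (1.60, adjusted p = 0.0332). Rian and Mirg were also called higher at both stages. Dlk1, which did not pass in ESC, was far lower than in the wild type at both later stages. It had 236 and 272 against 13.96 and 21.9 CPM in EB8 (-3.78, adjusted p = 7.24e-07, limma). In DIV7 it had 37.5 and 27.9 against 3.76 and 2.497 CPM (-3.03, adjusted p = 8.5e-06). In ESC the wild type had 10.3 and 9.55 CPM and the heterozygous line 15.4 and 13.8. In EB8 the wild type thus stood above its ESC values, while the heterozygous line overlapped its own. In DIV7 the wild type stood above and the heterozygous line below their ESC values. Differences between stages within a line were not tested. Grb10 was lower in EB8, at 34.5 and 29.7 against 1.83 and 2.31 CPM (-3.43, adjusted p = 6.28e-09), but not in DIV7, at 17.2 and 20.9 against 25.7 and 18.5 CPM (0.19, adjusted p = 0.786). Cdkn1c was lower in DIV7 (-1.22, adjusted p = 0.00317) and did not pass in EB8 (-0.79, adjusted p = 0.109). Igf2 stood at 47.5 and 43.2 against 6.78 and 7.14 CPM in EB8 (-2.54, adjusted p = 0.0214). In EB8 16 genes (0.115%) were called, 3 higher (0.0215%) and 13 lower (0.0933%) in the heterozygous line. In DIV7 there were 80 (0.574%), 6 higher (0.0431%) and 74 lower (0.531%).

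**Figure D3:**
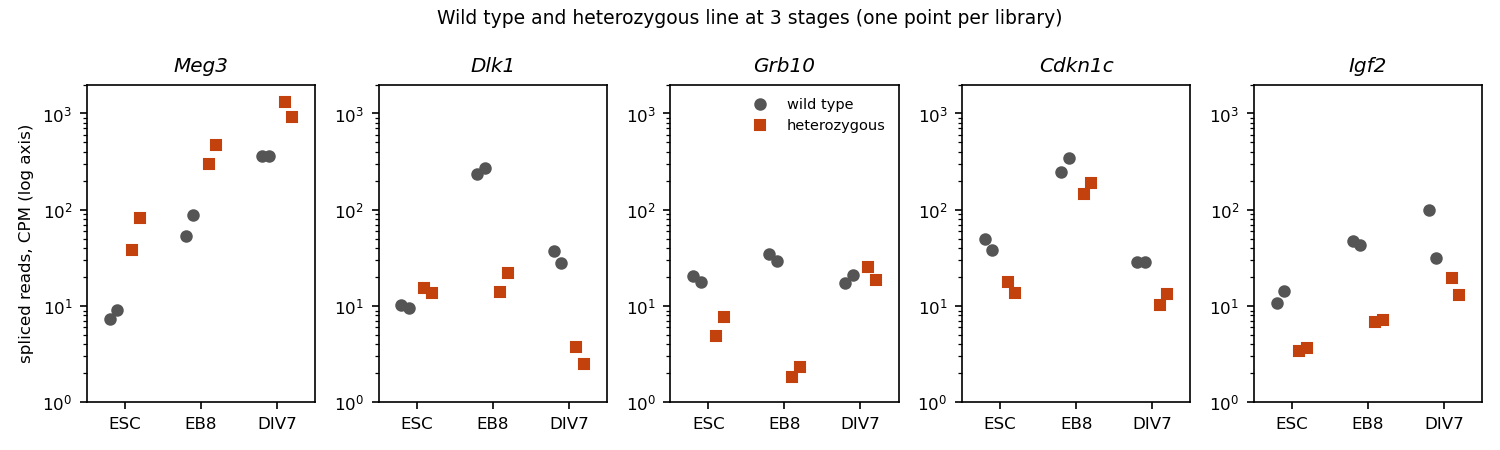
Spliced reads in CPM (log axis) of 5 imprinted genes at 3 stages, 1 point per library, wild type as grey circles and the heterozygous line as orange squares. Meg3 was higher in the heterozygous line at each stage, while Dlk1 did not pass the test in ESC and was far lower in EB8 and DIV7.

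Of the 10 genes at an adjusted p under 0.05, 5 changed less than 2-fold, and the 4 X-linked ones among them are given here. Porcn, an acyltransferase needed for Wnt secretion, rose from 20.9 and 22.1 to 35.7 and 31.6 CPM (log2 change 0.62 ± 0.09, adjusted p = 0.00297), and the homozygous line was higher still at 76.2 and 71.4 CPM. Eif1ax, a translation initiation factor, fell from 283.9 and 272.6 to 183.4 and 190.8 CPM (-0.57 ± 0.10, adjusted p = 0.0132). Rbbp7, a histone-binding subunit of chromatin complexes, fell from 501.9 and 530.8 to 351.3 and 377.7 CPM (-0.50 ± 0.08, adjusted p = 0.00861). Pdha1, a subunit of pyruvate dehydrogenase, fell from 330.0 and 334.5 to 241.9 and 240.2 CPM (-0.46 ± 0.09, adjusted p = 0.0404). With quantile scaling Eif1ax (adjusted p = 0.163), Rbbp7 (0.237) and Pdha1 (0.0956) did not pass. With any 1 of the 4 libraries left out, neither Eif1ax (adjusted p = 0.103 to 0.288) nor Pdha1 (0.3 to 0.511) passed the threshold of 0.05. Rbbp7 missed it without heterozygous replicate A (adjusted p = 0.288) or without wild-type replicate A (0.0749) or B (0.263). Porcn missed it without heterozygous replicate A (0.212) or wild-type replicate A (0.102). The log2 changes over the 15 alternatives ran from -0.60 to -0.50 for Eif1ax, -0.55 to -0.44 for Rbbp7, -0.47 to -0.40 for Pdha1 and 0.54 to 0.71 for Porcn.

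The other genes with the largest changes without overlap did not pass the test. Ushbp1, a gene of chromosome 8, came nearest, at 2.57 and 1.52 against 5.43 and 4.65 CPM (log2 change 1.01, adjusted p = 0.0613). Among genes best known from the germ line, Tex14 stood at 14.3 and 20.1 against 30.0 and 29.6 CPM, the kinase gene Aurkc at 7.61 and 5.95 against 15.6 and 8.37, and the cytochrome oxidase subunit gene Cox6b2, which lay lower, at 10.35 and 10.99 against 6.25 and 6.86 (adjusted p = 1 for each). Pstk, a kinase of selenocysteine synthesis, stood at 14.3 and 12.2 against 8.71 and 8.32 CPM (adjusted p = 0.478). The Ras-related gene Mras stood at 20.8 and 17.6 against 13.96 and 10.73 CPM (adjusted p = 0.326). Nup62cl stood at 23.2 and 22.2 against 15.4 and 14.2 CPM (adjusted p = 1).

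Eif1ax, Pdha1 and Rbbp7 lie close together on the X chromosome, and after this was seen the genes around them were read in order. Between Prdx4 and Zrsr2, from 155573455 to 163933666 (8.36 Mb, GRCm38), 23 genes were tested, and 16 were lower in the heterozygous line without overlap. The share lower without overlap was 15.6% over all genes tested and 36.8% over X-linked genes of at least 10 CPM. Since the interval was set by the values of its genes, it carries no test. At its outer ends Ptchd1 and Ap1s2, both under 5 CPM in the wild-type mean, had log2 changes of 0 and -0.01. Of the 14 genes in the interval with at least 5 CPM in the wild type, 14 were lower and 13 did not overlap. Their log2 changes ran from -0.57 to -0.28, with a median of -0.40. These genes cover a shorter stretch, from Sms (start 157443855) to Ctps2 (end 163032508). The exception to the lack of overlap was Map3k15, at 20.4 and 28.8 against 16.6 and 22.7 CPM. The genes on each side of the interval stood near the wild type. Prdx4 on its near side stood at 65.4 and 62.6 against 59.2 and 63.2 CPM, and Zrsr2 on its far side at 53.9 and 48.8 against 52.4 and 47.7 CPM. The other 463 X-linked genes tested had a median of -0.03. In the later stages, measured in other libraries, the log2 changes of the 14 genes ran from -0.68 to -0.13 in EB8 and from -0.77 to -0.24 in DIV7. Against the wild type the other ESC lines lay on the opposite side in the median over these 14 genes, though not in each gene: Map3k15 had 18.6 and 23.9 CPM in the homozygous line. The median log2 ratio to the wild-type mean was -0.46 and -0.33 in the heterozygous libraries, 0.54 and 0.55 in the homozygous line, 0.46 and 0.64 in the exon deletion line, and 0.49 and 0.60 in the knockout. All of these share the wild-type libraries.

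**Figure D4:**
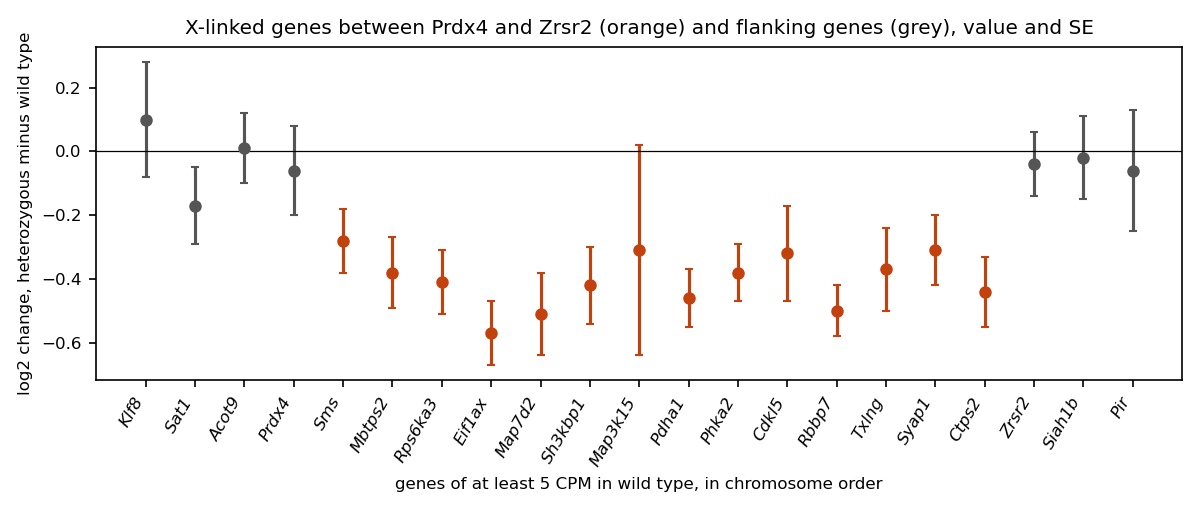
Log2 change (heterozygous minus wild type, ESC) with its SE for X-linked genes of at least 5 CPM in the wild type, in chromosome order without scale. The 14 genes between Prdx4 and Zrsr2 (orange) lay between -0.57 and -0.28, and the flanking genes (grey) between -0.17 and 0.10.

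Whole chromosomes also differed slightly, which is given as a description with no test. Over 8032 genes of at least 10 CPM the median log2 change was -0.006. It was 0.094 over the 486 genes of chromosome 8 and 0.077 over the 741 genes of chromosome 11. On chromosome 8, 40.5% of genes were higher without overlap, and on chromosome 11 35.9%, against 15.6% over all chromosomes. On the X chromosome the median over 239 genes was -0.077, with 36.8% lower without overlap against 17.4% over all chromosomes. The 4 genes of the Y chromosome were higher without overlap, with a median of 0.338. The direction on chromosomes 8, 11, X and Y was the same after scaling to total reads and after quantile scaling. Each other edited line also had a positive median against the wild type on chromosomes 8 and 11, from 0.041 to 0.177. On the X chromosome their medians were below 0 as well, from -0.10 to -0.020. On the Y chromosome the homozygous line (0.581 and 0.588) and the knockout (0.325 and 0.284) were also higher, while the exon deletion line stood at -5.155 in both libraries. All of these comparisons share the wild-type libraries. Grb10, on chromosome 11, moved against its chromosome.

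**Figure D5:**
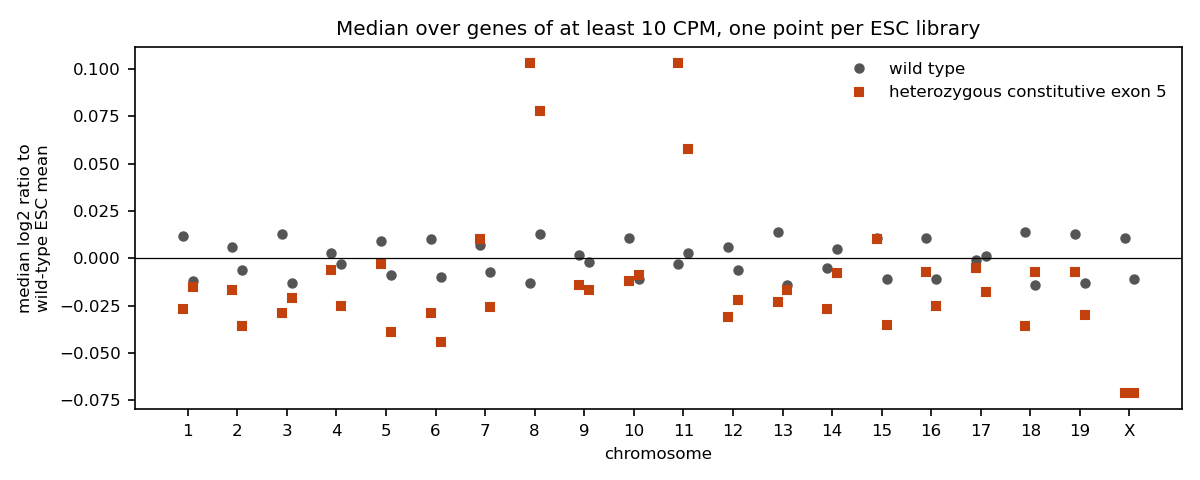
Median log2 ratio to the wild-type ESC mean over genes of at least 10 CPM, by chromosome, 1 point per wild-type (grey) or heterozygous (orange) ESC library. Chromosomes 8 and 11 lay above 0 in both heterozygous libraries, and the X chromosome lay below at -0.071 in both.

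The ESC identity of the 4 libraries was held by its markers, except Sox2, which has no intron and was not measured. Pou5f1, the core pluripotency factor, stood at 1748 and 1740 CPM in the wild type and at 1688 and 1510 CPM in the heterozygous line. Nanog stood at 191.4 and 219.3 against 217.6 and 190.4 CPM, Zfp42 at 291.9 and 326.4 against 330.3 and 306.2 CPM, and Esrrb at 256.9 and 289.5 against 269.2 and 238.1 CPM. Of the 12 measured general pluripotency genes, 2 were higher and 1 lower without overlap (25%), and of the 16 naive genes 2 were higher and 4 lower (37.5%), both near the background of 31.7%. Neither list had a gene at an unadjusted p under 0.05, and 0 passed in limma or with voom weights. Lists of markers of other cell types were not all low. The 9 measured trophoblast markers summed to 72.2 and 94.2 CPM in the wild type against 79.5 and 94.95 in the heterozygous line, and 12 neural progenitor genes to 183.2 and 183.0 against 191.0 and 206.5. Endoderm markers summed to 1032 and 1338 against 1224 and 1362 CPM, of which Krt8, also expressed by other epithelia, gave 225.5 and 377.6 against 313.3 and 391.2. The 19 measured fibroblast, matrix and smooth muscle genes summed to 3455 and 4199 against 3866 and 4369 CPM. That was about as much as the general pluripotency list (3583 and 3395 against 3481 and 3125). Members of the fibroblast list ran from Postn, at 0.57 and 0.60 against 0.36 and 0.37 CPM, to Fn1, at 1621 and 1822 against 1765 and 1982. Since Fn1 gave much of the sum and CPM is not per length, such sums do not measure shares of cells. In the endoderm and fibroblast lists libraries B were higher than A in both groups, and of their 16 and 19 genes 5 and 2 did not overlap between the groups (31.2% and 10.5%).

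Genes tied to the known roles of Puf60 were also read as lists, beside the background of 31.7% without overlap over all genes. Of 25 measured factors of the 3' splice site and branch site, 4 were higher and 3 lower without overlap (28%), and the one with the largest change, Cherp, stood at 453.8 and 421.8 against 529.7 and 509.9 CPM (adjusted p = 1). Of 29 core spliceosome genes outside U2, 0 were higher and 7 lower (24.1%), with a median of -0.06. Of 51 alternative splicing regulators, 8 were higher and 7 lower (29.4%), with a median of 0.01. The 7 genes listed for the FIR form of Puf60 had a median of -0.13, with 2 higher and 3 lower (71.4%). For 16 genes of MYC and its targets the median was -0.02. Of 15 nonsense-mediated decay factors 6 were higher and 2 lower without overlap (53.3%), with changes from -0.26 to 0.21. The shares of the FIR and decay lists lay above the background, on few genes and with no test. Lefty2, a Nodal antagonist, stood at 31.7 and 38.4 against 56.8 and 45.9 CPM (adjusted p = 1), with the homozygous line at 145.2 and 157.9 CPM. In all, the 25 lists with no called gene held 394 measured genes. Of these, 21 (5.33%) had an unadjusted p under 0.05 in limma and 0 were called with voom weights.

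The heterozygous line differed from the homozygous line by far more than from the wild type. Between the 2 constitutive lines 262 genes (1.88%) and 127 splicing events (0.577%) were called, with 193 genes higher (1.39%) and 69 lower (0.495%) in the heterozygous line. Thbs1, a matrix glycoprotein and the gene of the fibroblast list with the largest change, had 195.6 and 236.1 CPM in the heterozygous line, near the wild type (155.9 and 195.9), and 44.9 and 51.5 CPM in the homozygous line (difference 2.14 log2, adjusted p = 6.5e-06). Nnat was higher in the heterozygous line by 2.37 (adjusted p = 4.03e-08) and H19 by 3.31 (adjusted p = 2.29e-05), both log2.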

How the data were processed

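Poly(A) RNA-seq libraries were made with a stranded kit modified for longer inserts, per the labels' protocols. The deposited splicing tables give PSI (percent) and, in quality strings, the read numbers behind each event. The authors' deposited comparison tables give group PSI (treated as a score, since some exceed 100), RPKM, log2 fold changes and FDR (p-value scale). Per the submitters' processing notes Salmon 0.14.1, edgeR and build mm10 were used, and no other setting, such as the strand of counting, was found in them. PSI was recomputed from the inclusion and exclusion read counts of the deposited strings.

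No read count per gene and library was used as deposited. Spliced reads across 189118 introns were summed to 25626 genes, giving 23204150 to 38571969 reads per library over the 30 libraries. In ESC the wild type had 34961046 and 33482905 and the heterozygous line 32995770 and 28375996. Genes without an annotated intron are not measured, and CPM is not per length. CPM was scaled by median-of-ratios factors, and genes with 1 CPM in at least 2 libraries were kept. Limma 3.58.1 in R 4.3.3 (trend, robust) was fitted to log2(CPM + 1) of 30 libraries in 15 groups (15 residual degrees of freedom).

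Splicing events needed 10 reads in every ESC library and a mean PSI of 5 to 95. Limma was fitted to log ratios of reads (1 added) weighted by read number and an over-dispersion of 0.0156, estimated from events with at least 100 reads, over 10 libraries (5 residual degrees of freedom). Later stages were fitted alike, each on its own. Adjusted p-values are Benjamini-Hochberg over all features. Called means adjusted p under 0.05 with a 2-fold change or 10 PSI points. The fits were tested on simulated data.

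Named genes were Puf60, all called genes, the 8 largest rises and falls without overlap at 5 CPM or more, the Dlk1 and Meg3 cluster, and the leading gene of each list, of which the text describes some; other genes were named after their values were seen. A gene and a sequence are not reported here. The groups, gene lists and rules were chosen with earlier results of these data known.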

Additional observations from a re-analysis of the deposited data

Results flagged for a closer look

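The effect of the heterozygous line on 2 imprinted genes differed between stages by a test of the difference itself (limma interaction over 13931 genes, Benjamini-Hochberg adjustment). For Dlk1 the log2 change against the wild type was lower in EB8 than in ESC by a difference of -4.30 ± 0.41 (adjusted p = 4.87e-05), and lower in DIV7 than in ESC by -3.55 ± 0.41 (adjusted p = 0.000228). In ESC both heterozygous libraries were above both wild-type libraries, and in EB8 and DIV7 both were below. For Grb10 the change was lower in EB8 than in ESC by -1.93 ± 0.31 (adjusted p = 0.023) and higher in DIV7 than in ESC by 1.69 ± 0.31 (adjusted p = 0.0276).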

How the results depend on the processing

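With each group at 2 libraries, the calls were few and near the limit of the design. Genes called numbered 5 as analysed, 4 with the 10 ESC libraries alone or with voom weights, and 2 to 5 when 1 library was left out. The lowest counts came without wild-type replicate A (2) and without heterozygous replicate B (3). Events called numbered 3 as analysed and 2 to 4 when 1 library was left out. An unweighted splicing fit called 0 events in limma, with 1256 at an unadjusted p under 0.05, and Puf60 exon 5 kept its difference of 27.69 points at an adjusted p of 0.533. Without the filter on mean PSI 0 events were called, with 21622 at an unadjusted p under 0.05, and the adjusted p of Puf60 exon 5 was 0.0864 at 27.69 points. In that fit the log ratio of events near 0 or 100 PSI moves with read number because 1 read is added. The Mid1 exon had no value with at least 20 reads, because the exon deletion line has 15. Puf60 exon 5 stayed called in all leave-one-out fits, at 26.85 to 28.53 points. The log2 change of Puf60 level ran from -0.01 (without wild-type replicate B, a reversed sign) to 0.06. Krt8 ran from -0.11 (without wild-type replicate A, a reversed sign) to 0.63 (without wild-type replicate B).

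Of 107 values of the 5 genes and 3 exons called as analysed, 90 stayed called, 17 did not, and 0 reversed. Among those lost beside the splicing fits above, Meg3 missed with voom weights (adjusted p = 0.0837) and with 4 libraries alone (0.117), and Grb10 with 10 ESC libraries alone (0.0582). Libraries of the same letter deviated together: differences between A and B correlated over genes at 0.43 to 0.71 in 10 pairs of ESC lines (0.52 for these groups), a hint from the data, since the labels name no shared culture or day. With the replicate letter as a block, 6 genes and 3 events were called, Puf60 exon 5 stayed at 27.69 points (adjusted p = 8.38e-06), Puf60 level at 0.02, and Ushbp1 was added (log2 change 1.01).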
